A study of Mus musculus with 7 samples.

Results

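Neutrophils carry their antimicrobial proteins in granules that are filled one after another as the cell matures. Primary granules, with myeloperoxidase and the serine proteases, are filled at the promyelocyte stage. Secondary (specific) granules, with lactoferrin, cathelicidin and lipocalin-2, are filled at the myelocyte stage, and tertiary (gelatinase) granules follow. The transcription factor C/EBP epsilon is known for its need in secondary granule gene expression. RNA of the late granule genes is a sign of granulocytic commitment and is not a hallmark of stem cells.

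The 10 genes described here encode secondary and tertiary granule proteins and the other abundant products of late neutrophil maturation (Ltf, Camp, Ngp, Lcn2, Mmp8, Mmp9, S100a8, S100a9, Retnlg and Chil3). They were taken by gene symbol from the 24421 symbols of the count table, and 10 of 10 passed the filter on low counts that left 13340 genes for testing. They were selected on earlier results of the same genotype comparison, so their genotype differences are given as a description and not as tests. RNA-seq was performed on 7 samples of Lin-Sca1+Kit+ (LSK) cells sorted from recipient mice. LSK cells are the fraction of mouse bone marrow that holds stem cells and multipotent progenitors. All recipients were lethally irradiated BoyJ mice that received marrow carrying RosaCreERT2, a tamoxifen-inducible Cre expressed from the ubiquitous Rosa26 promoter. All were given tamoxifen after transplantation, at 1 mg daily in 2 rounds of 5 days. The marrow of 4 samples (replicates 1 to 4) was Ddx41+/+, and that of 3 samples (replicates 6 to 8) was Ddx41+/flox before excision and is called Ddx41+/- here. Cells were taken 8 weeks after transplantation. The recipient mice can keep some of their own hematopoietic cells, and the ages of the animals are not given in the sources used here. A Ddx41+/- library numbered 5 had been removed from the deposited counts, for a reason that is not stated. It is likewise not stated whether recipients of one genotype shared a donor.

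Total counts per sample ranged from 32234499 to 43751290. Levels are given as CPM, counts scaled to a common library size after adjustment by the trimmed mean of M values (TMM). Ddx41, the DEAD-box helicase gene that was targeted, was at 92.8, 98.7, 93.2 and 106.6 CPM in Ddx41+/+ and at 68.1, 64.4 and 69.5 CPM in Ddx41+/-. Its log2 fold change, Ddx41+/- over Ddx41+/+, was -0.54 (SE 0.071, Benjamini-Hochberg adjusted p = 0.0052, edgeR quasi-likelihood test). Of the proteins that define the sort, Kit was at 427 to 505 CPM and Ly6a, which encodes Sca1, at 13.3 to 30.5 CPM over the 7 samples. The RNA of 45S ribosomal precursor (Rn45s) took 0.622 to 2.92% of the counts, with the highest shares in Ddx41+/+ replicate 3 and Ddx41+/- replicates 7 and 6, and its part in the differences below was not tested.

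The genes lie on 4 chromosomes, located here on GRCm38 with GENCODE M21. Camp (chr9:109847379-109849617, minus strand), Ngp (chr9:110419747-110423012, plus strand) and Ltf (chr9:111019271-111042767, plus strand) are neighbours on a wider scale, with 570.1 kb between Camp and Ngp and 596.3 kb between Ngp and Ltf. Mmp8 (chr9:7558456-7568485, plus strand) is elsewhere on that chromosome. S100a8 (chr3:90668978-90670035, plus strand) and S100a9 (chr3:90692632-90695721, minus strand) are 22.6 kb apart, and Chil3 (chr3:106147554-106167564, minus strand) is further along. Lcn2 (chr2:32384633-32388252, minus strand) and Mmp9 (chr2:164940780-164955850, plus strand) share chromosome 2, and Retnlg (chr16:48872621-48874496, plus strand) stands alone. No exon of the 10 genes overlaps another annotated gene. The near relatives that could share reads with Chil3 or Retnlg had at most 1 count over the 7 samples (Chil4 1, Retnlb 1 and Retnla 0).

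Promoter sequence of 9 of the 10 genes was found in a RefSeq table of the GRCm38.p6 assembly, with Mmp9 as the exception. The 120 bases just before the first annotated start are shown for 5 genes, so that the letters before their starts can be read side by side. Iron-binding, protease, calprotectin and lectin products are among them, and the windows shown are not all that were available. They are given 5′ to 3′ on the strand of the gene. Capitals mark TTNNGNAA, a core pattern of C/EBP factors, or GAGGAA, a core pattern of PU.1, on either strand. The windows are chr9:111019151-111019270, plus strand for Ltf, chr9:110419627-110419746, plus strand for Ngp, chr9:7558309-7558428, plus strand for Mmp8, chr3:90668858-90668977, plus strand for S100a8 and chr3:106167565-106167684, minus strand for Chil3.
Ltf: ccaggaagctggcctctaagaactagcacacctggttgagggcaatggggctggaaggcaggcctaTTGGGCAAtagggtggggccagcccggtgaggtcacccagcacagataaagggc
Ngp: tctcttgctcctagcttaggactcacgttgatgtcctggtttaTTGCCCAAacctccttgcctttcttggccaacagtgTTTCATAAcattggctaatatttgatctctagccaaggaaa
Mmp8: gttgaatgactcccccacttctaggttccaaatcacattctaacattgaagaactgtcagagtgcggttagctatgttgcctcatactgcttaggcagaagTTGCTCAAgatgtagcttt
S100a8: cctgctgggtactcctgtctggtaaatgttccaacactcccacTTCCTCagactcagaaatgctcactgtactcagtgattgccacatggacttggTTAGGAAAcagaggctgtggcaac
Chil3: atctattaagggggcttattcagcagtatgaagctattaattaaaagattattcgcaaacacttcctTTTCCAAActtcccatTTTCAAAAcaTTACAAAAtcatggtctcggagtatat

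In these windows the C/EBP pattern occurred 1 time in Ltf, 2 times in Ngp, 1 time in Mmp8, 1 time in S100a8 and 3 times in Chil3, and the PU.1 pattern 1 time, in S100a8. The windows of the same length before S100a9 and Retnlg, which are not shown, held 0 matches to either pattern. The patterns can overlap in principle, and no marked stretches overlap here. The wider search used the 250 bases before the RefSeq start, which for Ltf, Ngp, S100a8, Camp and Lcn2 lies 21, 61, 93, 161 and 513 bases inside the GENCODE gene. Some of those bases are therefore transcribed in the GENCODE models, including the Lcn2 window as a whole. In that search 8 of the 9 genes held the C/EBP pattern (Camp did not), compared with 36.8% of all 32851 promoters in the table. For the PU.1 pattern it was 4 of 9 (Ltf, Lcn2, Mmp8 and S100a8), compared with 23.3% of all promoters. The letters TATAAA on the strand of the gene were found in 1 of 9, S100a8, compared with 7.59% of all promoters. Such matches describe letters in a window and do not show binding.

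All 10 genes had a higher mean in Ddx41+/- LSK cells, by 1.57-fold (Chil3) to 2.97-fold (Mmp9). Over the 10 genes the median log2 fold change was 0.84 (1.79-fold), compared with -0.0048 over the 13340 genes tested. For 7 of the 10 genes every Ddx41+/- sample was above every Ddx41+/+ sample, and for Ngp, Retnlg and Chil3 the genotypes overlapped. Of all genes tested, 4.84% were higher in Ddx41+/- without overlap. A log2 fold change above 0.5 was seen in 10 of 10 genes and in 4.74% of all genes tested. Because the genes were selected on this comparison, nothing is read from these counts about the set as a whole. A single gene, Mmp9, passed an adjusted p of 0.05 in the edgeR test and 0 were called lower, beside 0.12% of all genes called higher and 0.217% called in either direction. At an adjusted p of 0.1, 2 genes passed (Mmp8 and Mmp9), beside 0.285% of all genes called higher. At an unadjusted p of 0.05 it was 9 of 10, beside 5.7% of all genes higher at that level. The plot of levels by replicate shows each sample.

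**Figure D1:**
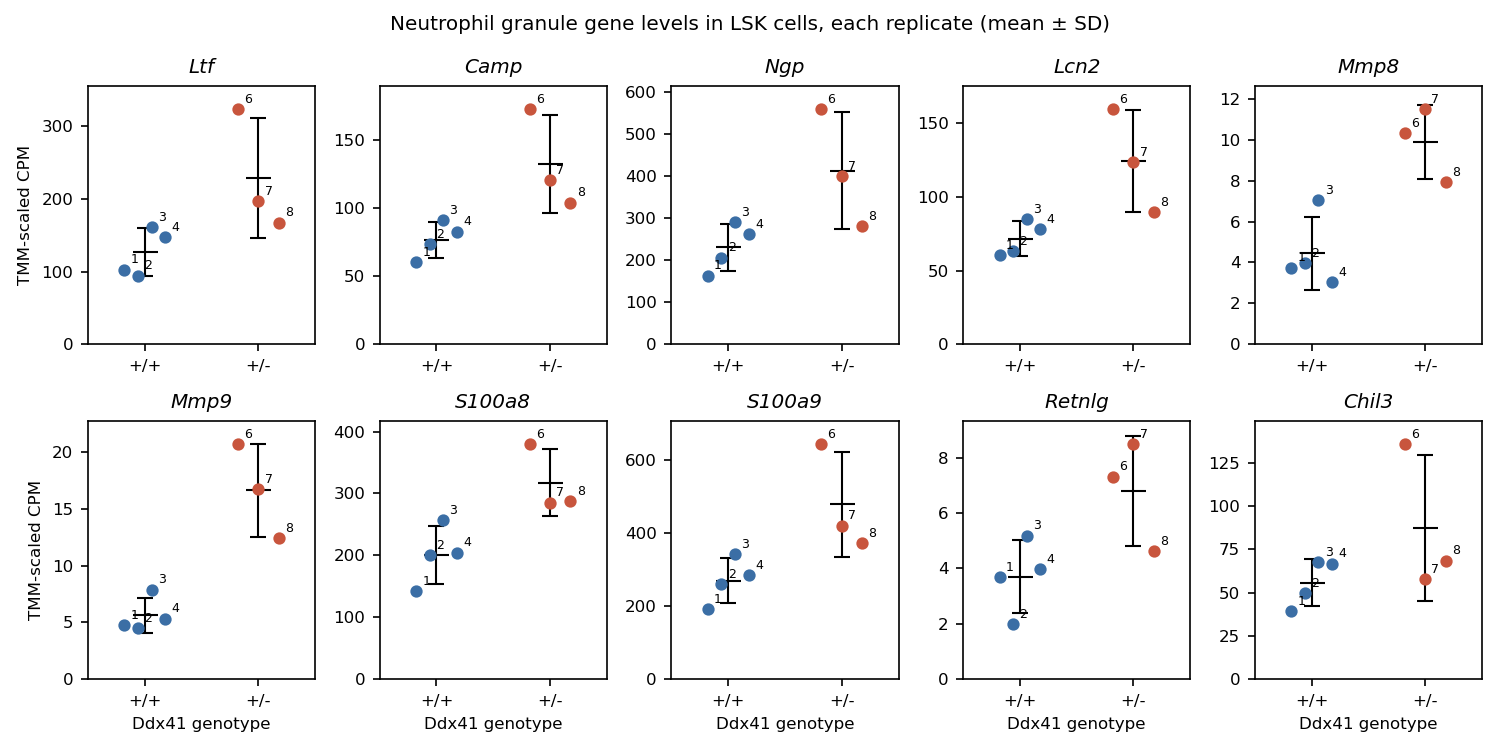
Level of each granule gene in TMM-scaled CPM (y axis, from 0, different scale in each panel) in Ddx41+/+ (blue, 4 samples) and Ddx41+/- (red, 3 samples) LSK cells. Points are samples labelled by replicate number and black bars are mean ± SD. Ddx41+/- replicate 6 is the highest point in 8 of the 10 panels and Ddx41+/+ replicate 3 the highest blue point in all 10.

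Mmp9 encodes gelatinase B, the protease after which gelatinase granules are named. It was at 4.74, 4.50, 7.90 and 5.33 CPM in Ddx41+/+ replicates 1 to 4 and at 20.7, 16.8 and 12.4 CPM in Ddx41+/- replicates 6 to 8. The lowest Ddx41+/- sample was above the highest Ddx41+/+ sample, replicate 3. The means were 5.62 ± 1.56 (SD, n = 4) and 16.6 ± 4.14 CPM (SD, n = 3), a log2 fold change of 1.57 (SE 0.21) that lay between 1.38 and 1.78 when any 1 sample was left out.

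Mmp8 encodes neutrophil collagenase, a protease of secondary granules. It was at 3.75, 3.96, 7.04 and 3.04 CPM in Ddx41+/+ and at 10.3, 11.5 and 7.93 CPM in Ddx41+/-. The genotypes did not overlap, with Ddx41+/+ replicate 3 and Ddx41+/- replicate 8 nearest to each other. The log2 fold change was 1.16 (SE 0.25), from means of 4.45 ± 1.78 (SD, n = 4) and 9.91 ± 1.81 CPM (SD, n = 3). These proteases were among the least abundant of the 10 genes, and Mmp8 had 110 counts in its lowest sample.

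Among the secondary granule genes with higher counts, Ltf encodes lactoferrin, which binds iron. Ltf was at 102.6, 94.6, 161.2 and 147.6 CPM in Ddx41+/+ and at 323.1, 196.7 and 167.5 CPM in Ddx41+/-. Ddx41+/- replicate 6 stood well above the rest, and replicate 8 was 1.04 times the highest Ddx41+/+ sample. The means were 126 ± 32.9 (SD, n = 4) and 229 ± 82.7 CPM (SD, n = 3), with a log2 fold change of 0.86 (SE 0.32) that was 0.53 without Ddx41+/- replicate 6.

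Camp, the precursor of the mouse cathelicidin antimicrobial peptide, was at 60.1, 73.2, 90.9 and 82.7 CPM in Ddx41+/+ and at 172.2, 120.5 and 103.8 CPM in Ddx41+/-. The genotypes did not overlap and the log2 fold change was 0.79 (SE 0.21). Lcn2, which encodes a lipocalin that captures bacterial siderophores, was at 60.6, 63.1, 84.9 and 78.3 CPM in Ddx41+/+ and at 159.5, 123.7 and 90.0 CPM in Ddx41+/-. Its samples followed the order of Camp in Ddx41+/- and had the same highest sample in Ddx41+/+, with no overlap between genotypes and a log2 fold change of 0.79 (SE 0.21).

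Ngp encodes the neutrophilic granule protein, a relative of the cystatins. It was at 163.2, 205.8, 289.6 and 262.2 CPM in Ddx41+/+ and at 558.2, 400.4 and 280.5 CPM in Ddx41+/-. Ddx41+/- replicate 8 fell below Ddx41+/+ replicate 3, so the ranges overlapped by that pair alone. The log2 fold change was 0.84 (SE 0.31), from means of 230 ± 56.7 (SD, n = 4) and 413 ± 139 CPM (SD, n = 3).

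S100a8 and S100a9 encode the subunits of calprotectin, a calcium- and metal-binding protein that fills the neutrophil cytosol rather than a granule. S100a8 was at 142.1, 200.7, 256.6 and 204.4 CPM in Ddx41+/+ and at 379.4, 284.9 and 287.8 CPM in Ddx41+/-, with a log2 fold change of 0.66 (SE 0.21). S100a9 was at 191.3, 259.7, 341.1 and 284.0 CPM in Ddx41+/+ and at 642.1, 419.5 and 372.6 CPM in Ddx41+/-, with a log2 fold change of 0.83 (SE 0.27). Neither gene overlapped between genotypes, and for both the extremes were Ddx41+/+ replicate 1 and Ddx41+/- replicate 6.

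The remaining pair are secreted products. Retnlg encodes resistin-like gamma and was at 3.67, 1.99, 5.18 and 3.98 CPM in Ddx41+/+ and at 7.31, 8.48 and 4.62 CPM in Ddx41+/-. Ddx41+/- replicate 8 was below Ddx41+/+ replicate 3, and the log2 fold change was 0.88 (SE 0.29) on as few as 77 counts in 1 sample. Chil3 encodes the chitinase-like lectin Ym1. It was at 39.3, 49.5, 67.7 and 66.8 CPM in Ddx41+/+ and at 135.8, 57.7 and 68.6 CPM in Ddx41+/-. Ddx41+/- replicate 6 was far above the Ddx41+/+ samples, replicate 8 was just above the highest of them, replicate 7 was below replicates 3 and 4 of Ddx41+/+, and the log2 fold change of 0.65 (SE 0.38) was 0.18 without Ddx41+/- replicate 6.

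Per kilobase of exon, which allows levels to be compared between genes, S100a9 was the most abundant of the 10 in Ddx41+/+ at 515 ± 119 CPM per kb (SD, n = 4). It was followed by S100a8 at 290 ± 67.4, Ngp at 188 ± 46.4 and Camp at 101.2 ± 17.4 CPM per kb. Ltf (36.7 ± 9.53), Chil3 (34.2 ± 8.49) and Lcn2 (27.4 ± 4.48 CPM per kb) formed a middle group, and Retnlg (6.25 ± 2.22), Mmp8 (1.83 ± 0.73) and Mmp9 (1.59 ± 0.44 CPM per kb) were lowest. Neighbours in this order overlapped in their Ddx41+/+ range except Ngp and Camp, Camp and Ltf, Lcn2 and Retnlg, and Retnlg and Mmp8. On the same scale the primary granule genes Mpo and Elane were far higher, at 4177 ± 299.7 and 2503 ± 287 CPM per kb in Ddx41+/+ (SD, n = 4). Not all primary granule genes were high, as Bpi had a mean of 0.12 CPM in Ddx41+/+. In Ddx41+/- the means were 915.8 ± 275.8 CPM per kb for S100a9 and 4.70 ± 1.17 CPM per kb for Mmp9 (SD, n = 3), so Mmp9 passed Mmp8 (4.08 ± 0.74 CPM per kb) in the order of means.

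The 10 genes followed each other across the samples as well as between genotypes. Ddx41+/+ replicate 3 was the highest sample of its genotype for 10 of 10 genes, and replicate 1 was the lowest for 6. In Ddx41+/-, replicate 6 was the highest for 8 genes and replicate 8 the lowest for 8. The summed level of the 10 genes was 771, 957, 1312 and 1138 CPM in Ddx41+/+ and 2409, 1640 and 1396 CPM in Ddx41+/-. The Ddx41+/- samples were all above the Ddx41+/+ samples, but Ddx41+/- replicate 8 lay closer to Ddx41+/+ replicate 3 than to Ddx41+/- replicate 7. The sums averaged 1045 ± 233 (SD, n = 4) and 1815 ± 528 CPM (SD, n = 3), and the genes took 0.0785 to 0.129% of all counts in Ddx41+/+ and 0.142 to 0.238% in Ddx41+/-. In bulk samples, more cells of a type and more RNA per cell cannot be told apart.

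The genes also varied more within genotypes than most. The biological coefficient of variation was estimated by edgeR per gene, with each estimate drawn toward the trend for genes of like level. It was 18.8 to 33.9% for the 10 genes with a median of 23.8%, compared with a median of 10.2% over all genes tested. The trend itself was at 15.3% for Mmp9, 18.1% for Mmp8 and 20.5% for Retnlg, the genes with the fewest counts. For the other genes of the set it was 7.67 to 8.14%. Ngp, S100a8 and S100a9 together made up 64.4 to 69.6% of the summed CPM in each of the 7 samples, while the sum itself ran from 771 to 2409 CPM.

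Ratios between genes within a sample cancel any factor that the pair shares. Lcn2 over Camp was between 0.862 and 1.03 in the 7 samples, a 1.19-fold range, and Ngp over Camp between 2.70 and 3.32, a 1.23-fold range. S100a9 over S100a8 ran from 1.29 to 1.69, with Ddx41+/- replicate 6 highest. For each of these 3 pairs the ratios of the genotypes overlapped. Chil3 over Camp was 0.479 in Ddx41+/- replicate 7 and 0.654 to 0.809 in the other samples, so Chil3 was low for the granule level of that sample. Mmp9 over Ltf behaved otherwise, at 0.0462, 0.0476, 0.0490 and 0.0361 in Ddx41+/+ and 0.0641, 0.0854 and 0.0743 in Ddx41+/-. It did not overlap between genotypes, and as this pair was picked after the values were seen, no test is given. The plot of ratios sets these pairs side by side.

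**Figure D2:**
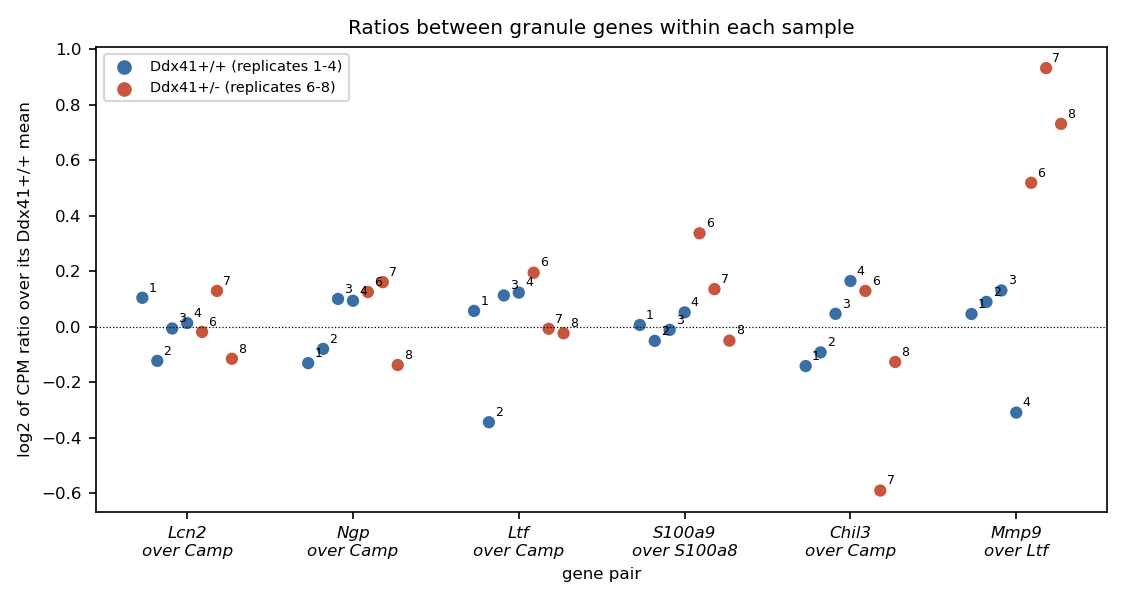
Ratio of CPM between 2 granule genes within each sample, as log2 of the ratio over its Ddx41+/+ mean (y axis), for 6 pairs (x axis). Points are samples labelled by replicate (blue Ddx41+/+, red Ddx41+/-). Lcn2 over Camp and Ngp over Camp stay near 0 in both genotypes, whereas all 3 Ddx41+/- points lie above the 4 Ddx41+/+ points for Mmp9 over Ltf.

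The genes around this set in neutrophil maturation were followed in 5 lists of 60 genes, of which 53 were tested. Of these, 1 was called higher and 0 lower (beside 0.217% of all genes), 46 had a log2 fold change above 0, 10 were higher without overlap (beside 4.84% of all genes), and the median log2 fold change was 0.11. The lists were written with earlier results known, and the medians are set beside -0.0048 over all genes tested.

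Other products of secondary and tertiary granules (16 genes, 16 tested) had a median log2 fold change of 0.31 and values above 0 for 16 of 16. The log2 fold changes ran from 0.049 (Cyba) to 1.27 (Mmp25, SE 0.37). Mmp25, Olfm4 (1.03, SE 0.47), Chil1 (0.81, SE 0.24) and Cd177 (0.75, SE 0.19) were within the range of the 10 genes, 0.65 to 1.57. The other genes of the list were below that range. For 7 of the 16 genes (Fcnb, Hp, Cd177, Chil1, Mmp25, Cybb and Itgam) the Ddx41+/- samples were higher without overlap, beside 4.84% of all genes tested. Cybb, which encodes the catalytic subunit of the phagocyte NADPH oxidase and is carried in secondary granule membranes, was the gene called. It was at 60.8, 67.1, 69.8 and 65.8 CPM in Ddx41+/+ and at 102.2, 108.7 and 83.0 CPM in Ddx41+/-. Cybb rose with a log2 fold change of 0.57 (SE 0.087, adjusted p = 0.0121, edgeR quasi-likelihood test), and the adjusted p was 0.0506 without Ddx41+/+ replicate 2 and 0.0578 without Ddx41+/- replicate 7 (edgeR). Of the most abundant genes of the list, the haptoglobin gene Hp had a log2 fold change of 0.26 (SE 0.077, adjusted p = 0.237, edgeR), the lysozyme gene Lyz2 of 0.26 (SE 0.098, adjusted p = 0.365, edgeR) and Cyba, the partner subunit of Cybb, of 0.049 (SE 0.074, adjusted p = 0.865, edgeR).

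Primary granule genes (8 listed, 7 tested) had a median log2 fold change of 0.11, with 7 of 7 above 0 and 0 called. Mpo, which encodes myeloperoxidase, was at 12906, 14375, 14550 and 15372 CPM in Ddx41+/+ and at 16109, 17264 and 15784 CPM in Ddx41+/-. Its genotypes did not overlap, but the log2 fold change was small (0.20, SE 0.068, adjusted p = 0.314, edgeR). For Elane, neutrophil elastase, it was 0.26 (SE 0.080, adjusted p = 0.264, edgeR), and for Prtn3, proteinase 3, 0.16 (SE 0.072, adjusted p = 0.427, edgeR).

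Transcription factors of the lineage (8 listed, 8 tested) had a median log2 fold change of 0.060 with 0 called, and the median was 0.015 without Ddx41+/- replicate 6, 0.094 without Ddx41+/+ replicate 4 and 0.092 without Ddx41+/- replicate 8. Among the 3 most abundant, the log2 fold change was 0.060 for Irf8, a factor of monocyte fate, 0.053 for Spi1, which encodes PU.1, and -0.070 for Cebpa, the factor of granulocyte-monocyte commitment, with SEs of 0.079, 0.068 and 0.073. Cebpe, outside the naming rule but shown because C/EBP epsilon is tied to secondary granules, was at 33.0 to 43.3 CPM in Ddx41+/+ and 41.0 to 45.8 CPM in Ddx41+/- (log2 fold change 0.21, SE 0.097, adjusted p = 0.447, edgeR).

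Receptors of neutrophils (12 listed, 11 tested) had a median log2 fold change of 0.050 with 0 called, and the median was 0.026 without Ddx41+/+ replicate 3, 0.028 without Ddx41+/- replicate 6, 0.026 without replicate 7 and 0.097 without replicate 8. Csf3r, the G-CSF receptor gene, had a log2 fold change of 0.084 (SE 0.075), and Csf2rb, the shared chain of the GM-CSF receptor, of 0.034 (SE 0.067). Ly6g was not analysed here. Fpr1, a formyl peptide receptor gene chosen after its values were seen, had at most 0.233 CPM in Ddx41+/+ and 0.541 to 1.28 CPM in Ddx41+/-, and was not called in edgeR (adjusted p = 0.195). Other late neutrophil genes (16 listed, 11 tested) had a median log2 fold change of 0.11 with 0 called. The median was 0.060 without Ddx41+/+ replicate 1, 0.062 without Ddx41+/- replicate 6 and 0.188 without replicate 7. The 3 most abundant were at 0.031 for the protease inhibitor gene Serpinb1a (SE 0.078), 0.11 for Anxa1, annexin A1 (SE 0.124), and -0.014 for S100a11 (SE 0.116). The 5 genes not tested included the stefins Stfa1, Stfa3 and Stfa2l1, with at most 0.225 CPM in any sample. The plot of genotype differences by list shows these values together.

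**Figure D3:**
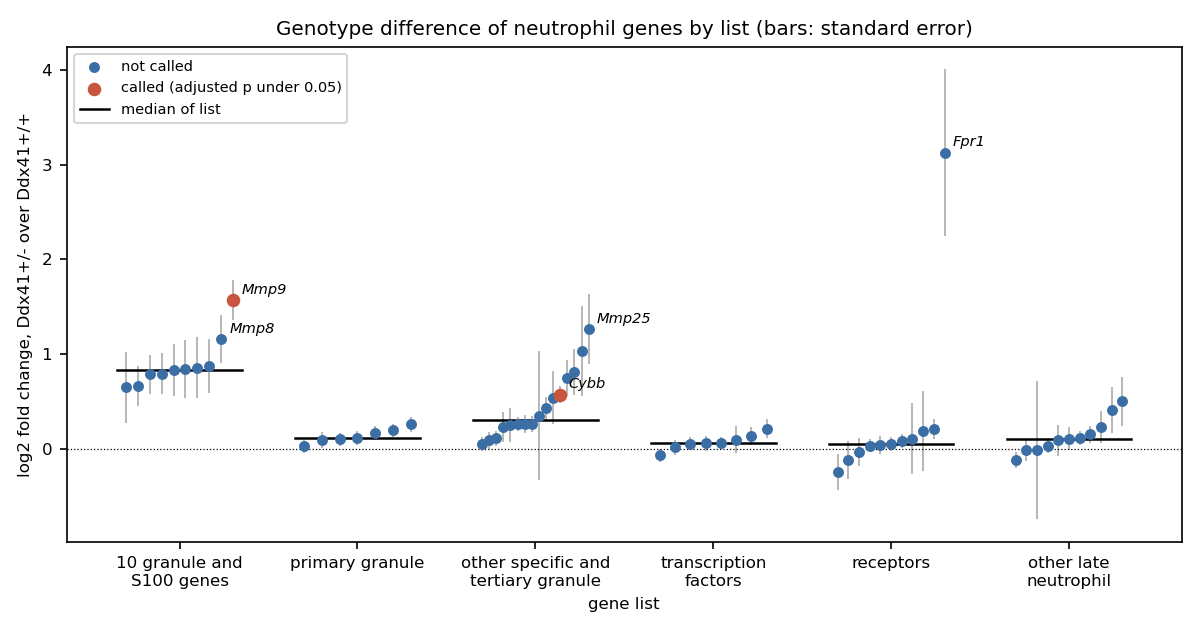
Log2 fold change of each tested gene, Ddx41+/- over Ddx41+/+ (y axis), by list (x axis). Points are genes, grey bars are standard errors, black lines are list medians, and red marks genes called at an adjusted p under 0.05 in edgeR. The medians are 0.84 for the 10 granule and S100 genes, 0.31 for other secondary and tertiary granule genes and 0.050 to 0.11 for the other lists.

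Markers of other cell types were summed in each sample to show what else moved. Stem and progenitor markers (10 genes, 10 tested, 0 called) had a median log2 fold change of -0.31, and their sum was 1753 to 1942 CPM in Ddx41+/+ and 1629 to 1766 CPM in Ddx41+/-. For 4 of them (Slamf1, Hlf, Procr and Meis1) the Ddx41+/- samples were lower without overlap, as were 5.22% of all genes tested, and Hlf, a transcription factor gene of stem cells, had the lowest adjusted p of the list (log2 fold change -0.46, SE 0.093, adjusted p = 0.0620, edgeR). The 3 most abundant were Cd34 (-0.16, SE 0.068), Kit (0.0041, SE 0.064) and Flt3 (-0.34, SE 0.122). Monocyte and macrophage markers (12 genes, 12 tested, 0 called) had a median of 0.20, and a sum of 1505 to 1808 CPM in Ddx41+/+ and 1733 to 2397 CPM in Ddx41+/-, with log2 fold changes of 0.42 for F13a1 (SE 0.146), 0.17 for Ly6c2 (SE 0.116) and 0.18 for Ms4a6c (SE 0.116). Both S100 genes are also expressed by monocytes, and the part of either shift in the granule genes was not tested.

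Eosinophil, basophil and mast cell markers (7 genes, 7 tested, 0 called) summed to 278 to 428 CPM in Ddx41+/+ and 349 to 509.5 CPM in Ddx41+/-, with a median log2 fold change of 0.24. Their 3 most abundant genes were Prg2 (0.35, SE 0.255), Epx (0.34, SE 0.195) and Mcpt8 (-0.096, SE 0.126). The directions were mixed, with 4 of 7 above 0 and log2 fold changes from -0.47 (Cpa3) to 0.46 (Prg3). Megakaryocyte markers (6 genes, 6 tested) had a median of -0.36 and summed to 220 to 269 CPM in Ddx41+/+ and 167 to 203 CPM in Ddx41+/-. Pf4, the platelet factor 4 gene, was called lower among them, with a log2 fold change of -0.56 (SE 0.096, adjusted p = 0.0283, edgeR), an adjusted p that was between 0.0640 and 0.0992 in edgeR when Ddx41+/+ replicate 2 or 3 or Ddx41+/- replicate 6 or 8 was left out. The other abundant genes were Itga2b (-0.32, SE 0.094) and Vwf (-0.11, SE 0.173).

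B-lineage markers (10 genes, 10 tested, 0 called) summed to 98.3 to 195 CPM in Ddx41+/+ and 100 to 439 CPM in Ddx41+/-, where the high sum was replicate 7 with Jchain, the joining chain gene of plasma cells, at 346 CPM. Their median log2 fold change was 0.78, with 10 of 10 above 0. Of the 10, 1 gene (Ebf1, an early B-lineage transcription factor gene) was higher in Ddx41+/- without overlap, beside 4.84% of all genes tested. The log2 fold changes of the 3 most abundant were 0.93 for Jchain (SE 1.05), 0.014 for Cd79b (SE 0.109) and 0.19 for Igll1 (SE 0.300). T and NK markers (9 genes, 4 tested, 0 called, median log2 fold change -0.098) summed to 224 to 277 CPM in Ddx41+/+ and 255 to 284 CPM in Ddx41+/-, nearly all of it Nkg7 (log2 fold change 0.064, SE 0.072), and Cd4 and Klrb1c had log2 fold changes of 0.026 (SE 0.404) and -0.22 (SE 0.411). Cd8a, at a mean of 0.50 CPM in Ddx41+/+, was lower in Ddx41+/- without overlap (-1.20, SE 0.658), beside 5.22% of all genes tested. Erythroid markers (9 genes, 5 tested, 0 called, median 0.040) summed to 51.5 to 84.4 CPM in Ddx41+/+ and 70.5 to 86.8 CPM in Ddx41+/-, led by Slc4a1 (0.32, SE 0.235), Klf1 (0.040, SE 0.209) and Epor (-0.082, SE 0.191), and the 4 globin genes of the list were listed at 0 in all samples. Stroma and endothelium markers (4 genes, 4 tested, 0 called, median 0.62) summed to 6.24 to 8.59 CPM in Ddx41+/+ and 8.05 to 21.2 CPM in Ddx41+/-, with the high value in replicate 8 from Col1a1 at 14.9 CPM (1.90, SE 0.95), beside Cxcl12 (0.17, SE 0.213) and Lepr (1.08, SE 0.699). The remaining gene of that list, Cdh5, went the other way (-1.91, SE 0.766), from a mean of 0.52 CPM in Ddx41+/+ to 0.14 CPM in Ddx41+/-. The Ddx41+/- samples in the granule sum had replicate 6 first and replicate 8 last. Among the marker lists this was also the order of the erythroid sum and, narrowly, of the eosinophil, basophil and mast cell sum. It was not that of the monocyte, B-lineage or stroma sums. Among the neutrophil lists it was the order of the other secondary and tertiary granule, transcription factor and other late neutrophil sums. The primary granule and receptor sums had another order. The plot of list sums shows the marker lists except stroma. In the eosinophil, basophil and mast cell sum, replicates 6 and 7 were nearly equal (509.5 and 509.1 CPM) and replicate 8 was lower (349 CPM). Ddx41+/+ replicate 1 was lowest of its genotype in the granule sum and in the monocyte, eosinophil, B-lineage, T and NK and erythroid sums. These are sums of RNA and not counts of cells, and their relation to the granule levels was not tested.

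**Figure D4:**
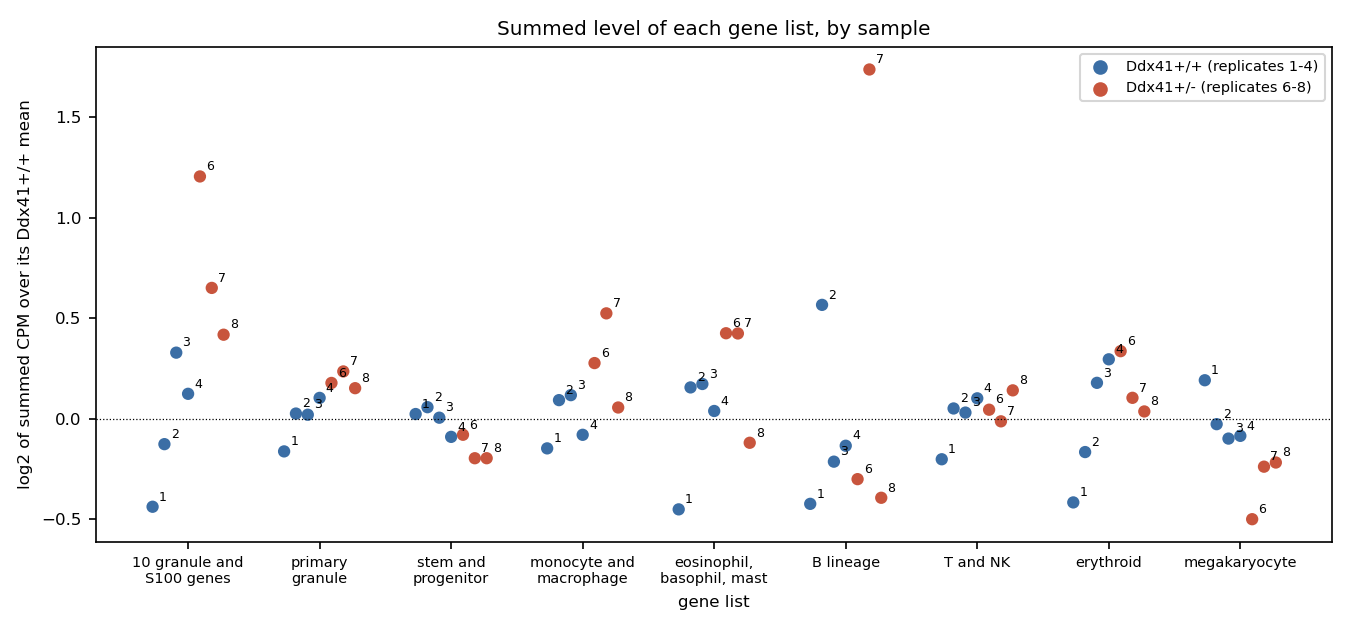
Summed CPM of each gene list in each sample, as log2 over the Ddx41+/+ mean of that list (y axis), for the 10 granule and S100 genes and 8 other lists (x axis). Points are samples labelled by replicate (blue Ddx41+/+, red Ddx41+/-). The granule sum is highest in Ddx41+/- replicate 6, whereas the monocyte and B-lineage sums are highest in Ddx41+/- replicate 7.

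Among 11760 genes with a mean of at least 1 CPM, those whose log2 CPM was most like the mean profile of the 10 genes over the 7 samples were Ndc80 (Pearson r 0.98), Zxda (0.97), Camsap2 (0.97), Spib (0.97) and Rpn1 (0.96). None is in the neutrophil lists. For Mmp9 alone they were Cyb5r4 (0.96), Olfml2b (0.96), Diap2 (0.96), Rpn1 (0.96) and Sdhaf3 (0.96). The correlations are a description over 7 samples in 2 genotypes, so a difference between genotypes enters each of them. In Ddx41+/+ and Ddx41+/- respectively, Ndc80 was at 39.1 ± 1.90 (SD, n = 4) and 43.8 ± 1.83 CPM (SD, n = 3) and Camsap2 at 14.9 ± 1.52 (SD, n = 4) and 19.0 ± 1.32 CPM (SD, n = 3).

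The direction of the 10 genes held in 140 of 140 values over 14 other fits, with log2 fold changes between 0.18 and 1.78. The fits reuse the samples of the comparison on which the genes were selected. The values are therefore not independent and are no further evidence of a difference. The median of the 10 genes ranged from 0.56, without Ddx41+/- replicate 6, to 1.01, and that of all genes from -0.019 to -0.0016. The number of genes without overlap was 7 under each scaling tried, and 9 when Ddx41+/+ replicate 3 or Ddx41+/- replicate 8 was left out. Mmp9 was called in each of these fits, with at most 2 of the other genes in any of them. The plot of alternative fits gives each value.

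**Figure D5:**
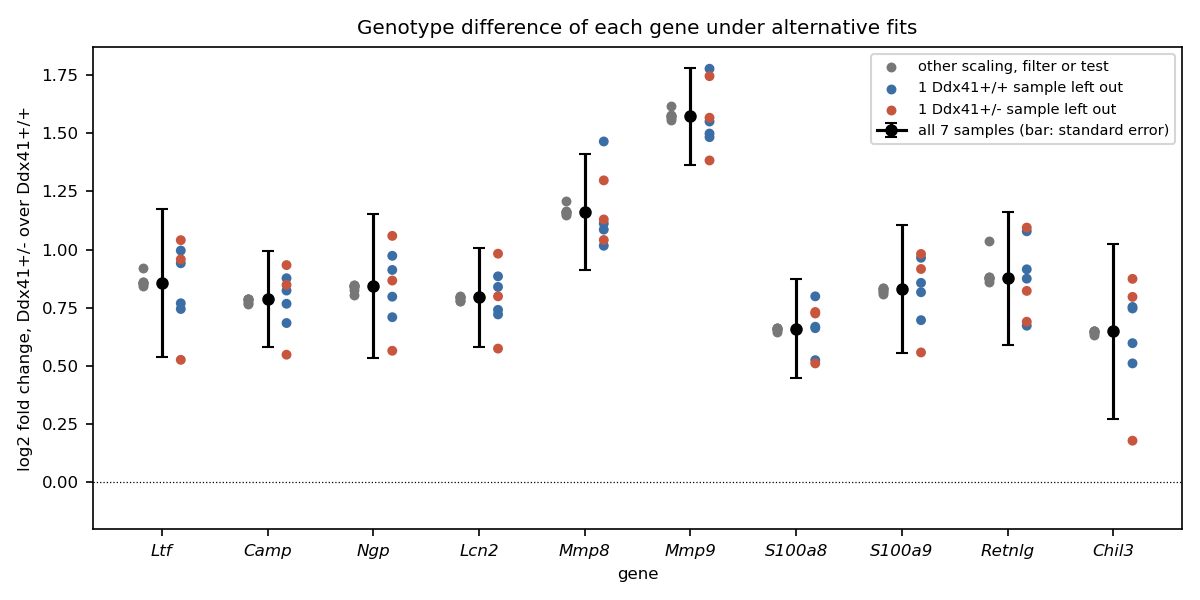
Log2 fold change of each granule gene, Ddx41+/- over Ddx41+/+ (y axis), with all 7 samples (black, bar is the standard error), under other scalings, filters or tests (grey) and with 1 sample left out (blue for a Ddx41+/+ sample, red for a Ddx41+/- sample). Every point is above 0, from 0.18 for Chil3 without Ddx41+/- replicate 6 to 1.78 for Mmp9 without Ddx41+/+ replicate 3.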

How the data were processed

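The authors sequenced poly(A) RNA from LSK cells and deposited unnormalized counts of reads per gene symbol for 7 samples (0 columns unused). The submitters' processing notes name mm10, FastQC 0.11.7, HISAT2 2.0.5 and featureCounts 1.5.2. The labels name a stranded library kit and the methods another, and the strand setting is not stated. Samples were grouped by labelled genotype, and each was treated as a separate replicate.

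Genes were filtered with filterByExpr, TMM-scaled and tested with the edgeR 4.0.16 quasi-likelihood test in R 4.3.3 (robust fit, Benjamini-Hochberg adjustment over 13340 genes, threshold 0.05). Log2 CPM used a prior count of 2. Alternatives were other scalings, no filter, DESeq2 1.42.0, limma 3.58.1 with voom and sample quality weights, a non-robust fit, a threshold of 0.1 and leaving out each sample. The test was checked on simulated data.

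The members and lists were chosen with earlier results of these data known. Named were the 10 genes, Ddx41, each list's called genes and 3 most abundant, and the 5 genes most like the set and Mmp9 over the samples. Other names were added after their values were seen. A gene that the rule names is not reported here.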

Additional observations from a re-analysis of the deposited data

Results flagged for a closer look

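Of 60 values checked within the 4 Ddx41+/+ samples, 1 was flagged, where chance flags about 3. Olfml2b, one of the genes most like Mmp9 over the samples, was lowest at 1.53 CPM in Ddx41+/+ replicate 2, apart from the nearest sample at 1.895 CPM (Dixon ratio 0.905, above the 95% critical value for 4 samples). Groups of 3 samples were not tested.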

How the results depend on the processing

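No paired analysis was possible because the genotypes share no replicate numbers. The number of genes called in edgeR was 29. It was 15 with library totals only, 91 with no filter, 164 with DESeq2, 14 with a non-robust fit and 74 at an adjusted p of 0.1. With 1 sample left out it ranged from 7 to 41, and it was 7 without Ddx41+/+ replicate 2, 16 without replicate 3, 14 without Ddx41+/- replicate 7 and 9 without replicate 8. The cause was not tested. Of the 10 granule genes, 1 (Mmp9) was called. With no filter, with DESeq2 and at an adjusted p of 0.1 it was 2 (Mmp8 and Mmp9), and with limma-voom and sample quality weights together it was 3 (Camp, Mmp8 and Mmp9). Leaving out 1 sample gave 1 to 2, with Mmp8 added without Ddx41+/+ replicate 3 and Lcn2 without Ddx41+/- replicate 8. The count without overlap between genotypes was 7 to 9 with 1 sample left out, an alternative chosen after seeing the data. Other secondary and tertiary granule genes called were 1 in edgeR, 2 with DESeq2 (Cd177 and Cybb), and 0 to 1 with 1 sample left out, 0 without Ddx41+/+ replicate 2 or Ddx41+/- replicate 7. For receptors DESeq2 called 1 (Fpr1). The call of Ddx41 and its direction were the same in each fit, with a log2 fold change from -0.56 to -0.50 with 1 sample left out. With 4 and 3 samples, differences near the spread of these genes cannot be told from 0, and Mmp8, Mmp9 and Retnlg rest on the fewest counts.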
